A study of Mus musculus with 12 samples.

Results

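Cytosolic ribosomal protein genes encode the proteins that, with ribosomal RNA, build the 60S subunit (symbols Rpl and Rplp) and the 40S subunit (symbols Rps and Rpsa). The members were the rows of the deposited expression table whose symbol was Rpl or Rps with a number and an optional a or x, Rplp0 to Rplp2, or Rpsa, which gave 76 of 25203 genes, 46 of the 60S and 30 of the 40S subunit. All 76 passed the filter for testing, at least 1 FPKM (fragments scaled to transcript length and library size) in at least 3 libraries, as did 12641 genes in all. The libraries were 12, in 4 groups of 3, and came from fibroblasts of the mouse intestinal stroma grown as primary cultures, with low signal of a Pdgfra reporter (H2B-GFP). Tgfbr2KO_TGFB1 cultures were labelled Tgfbr2KO, for the type 2 receptor of the growth factor TGFB1, and received TGFB1. Tgfbr2KO_Vehicle cultures were labelled Tgfbr2KO and received vehicle. TGFB1 cultures carried no knockout label and received TGFB1, and Vehicle cultures carried none and received vehicle. The labels used here give no age, dose, time, driver of the deletion or number of animals. The study asked how such fibroblasts respond to TGFB1, and used the Tgfbr2KO cultures for activity that does not pass through the canonical receptor.

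Ribosomal proteins are made in near-equal numbers, and their mRNAs are among the most abundant in a growing cell. In mammals most of these mRNAs start with a C followed by a run of pyrimidines, the TOP motif, through which mTOR signalling and the RNA-binding protein Larp1 control their translation. Synthesis of ribosomal RNA by RNA polymerase I and a large group of assembly factors complete the pathway, and Myc is known to raise the transcription of many of its genes. TGFB1 is known in fibroblasts for slowing division and raising matrix and contractile genes.

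The start-site windows of 7 members are printed as examples from the members described below, 5 that hold a pyrimidine run near the annotated start and 2 that hold none. Each window holds 15 bases before and 15 from the start annotated by RefSeq on GRCm38.p6, 5′ to 3′ on the transcribed strand, and capitals mark a run of a C followed by at least 4 bases that are C or T, beginning within 5 bases of the start.
Rpl35: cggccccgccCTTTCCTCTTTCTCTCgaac
Rpl12: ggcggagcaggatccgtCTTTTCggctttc
Rpl13a: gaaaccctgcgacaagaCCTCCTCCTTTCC
Rps18: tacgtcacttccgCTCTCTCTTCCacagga
Rps6: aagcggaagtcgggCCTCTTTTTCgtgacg
Rps12: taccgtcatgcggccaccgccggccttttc
Rplp0: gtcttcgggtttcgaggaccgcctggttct
These lie at chr2:39005117-39005146 on the minus strand (Rpl35), chr2:32961697-32961726 on the plus strand (Rpl12), chr7:45128731-45128760 on the minus strand (Rpl13a), chr17:33955651-33955680 on the minus strand (Rps18), chr4:86857353-86857382 on the minus strand (Rps6), chr10:23787195-23787224 on the minus strand (Rps12) and chr5:115559452-115559481 on the plus strand (Rplp0). Of the 76 members, 56 had an entry in the table of start sites. Searched on the transcribed strand only, the start base was a C followed by at least 4 bases that are C or T in 13 of the 56 (23.2%), against 3.01% of 27025 genes in the table; in some of these, such as Rpl35 and Rps18, the run began before the start base. A run beginning within 5 bases of the start was present in 27 (48.2%), against 21.2% of all genes. Windows of Rps12 and Rplp0 held no such run, which says only that these letters are not near the annotated base. In the comparisons below, the median log2 difference of the 27 with a run and the 29 without was 0.08 and 0.08 for TGFB1 minus Vehicle. It was 0.14 and 0.14 for Tgfbr2KO_TGFB1 minus Tgfbr2KO_Vehicle, and −0.10 and −0.08 for Tgfbr2KO_Vehicle minus Vehicle. For Tgfbr2KO_TGFB1 minus TGFB1 it was −0.06 and −0.03. This split rests on the annotated base, so it cannot compare TOP mRNAs with others.

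The family was a large and even part of these libraries. Mean levels over the 12 libraries ran from 23.9 FPKM (Rps6) to 5328 FPKM (Rplp1), with a median of 970 FPKM. Of the members, 49 were among the 100 highest genes of the table. The 5 highest were Rplp1 (an acidic protein of the 60S stalk that recruits elongation factors), Rpl41 (3713 FPKM, the smallest 60S protein), Rps26 (2350.4 FPKM), Rps12 (2125 FPKM) and Rplp2 (2093 FPKM, the partner of Rplp1). The 5 lowest were Rps6, Rps15a (55.9 FPKM), Rpl22 (100 FPKM), Rps20 (149 FPKM) and Rpl21 (246 FPKM). Members varied little: their median coefficient of variation over all 12 libraries was 7.56%, against 15.2% for all tested genes and 12.1% for the 755 other genes with a mean of at least 100 FPKM. Neither set was matched to the members in level.

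Levels are uncertain where a near-identical copy has a row of its own. Rps6, the 40S protein phosphorylated by S6 kinases, had 28.1, 24.1 and 26.3 FPKM in Tgfbr2KO_TGFB1, 21.3, 20.9 and 27.9 FPKM in Tgfbr2KO_Vehicle, 27.4, 20.2 and 23.3 FPKM in TGFB1 and 21.99, 21.2 and 24.4 FPKM in Vehicle. The row of its pseudogene Rps6-ps4, named after its values were seen, held 994 to 1202 FPKM. In the GENCODE M21 transcripts the 750 bases of Rps6-ps4 lie without a mismatch inside the 878 bases of Rps6, at positions 87 to 836, so the level of Rps6 is uncertain. Across the family a median of 44.5% of the 31-base words of a member's transcripts were shared with other annotated genes, pseudogenes included, and 26 members shared over 50%. With other genes that have a row in the deposited table the median was 0.405%, and 11 members shared over 20%, among them Rps6 (84.9%) and Rpl14 (54.3%).

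The Tgfbr2 row, which checks the knockout label, read 31.6, 38.0 and 62.4 FPKM in Tgfbr2KO_TGFB1 libraries, against 56.5, 70.6 and 74.6 FPKM in TGFB1 libraries. It read 27.0, 35.2 and 41.9 FPKM in Tgfbr2KO_Vehicle, against 48.0, 38.2 and 78.8 FPKM in Vehicle. Knockout libraries were lower on average but overlapped in both pairs, and neither difference passed the test (log2 difference −0.65 ± 0.30, SE, adjusted p = 0.119, and −0.61 ± 0.30, adjusted p = 0.260; limma, 3 libraries each). Whether the deleted part is within the reach of this row's value is not given. Fibroblast markers were present, with all 9 above 1 FPKM in at least 3 libraries. Their summed level was 4100 to 8029 FPKM in Tgfbr2KO_TGFB1, 3258 to 4553 FPKM in Tgfbr2KO_Vehicle, 8511 to 9456 FPKM in TGFB1 and 5866 to 10327 FPKM in Vehicle. Single markers moved apart within the sum: in TGFB1 minus Vehicle 3 of the 9 were positive. Pdgfra averaged 15.2 FPKM in TGFB1, against 142 FPKM in Vehicle, and Col1a1 4046 FPKM, against 2864 FPKM. All 8 macrophage markers were detected too, at sums of 109 to 271 FPKM in Tgfbr2KO_TGFB1, 133 to 365 FPKM in Tgfbr2KO_Vehicle, 13.2 to 343 FPKM in TGFB1 and 35.2 to 671 FPKM in Vehicle. Relative depth was read from the steps of low FPKM values, with the first Vehicle library set to 1. It averaged 0.964 ± 0.250 in Tgfbr2KO_TGFB1, 0.924 ± 0.0856 in Tgfbr2KO_Vehicle, 0.780 ± 0.0309 in TGFB1 and 1.00 ± 0.0437 in Vehicle (SD, n = 3 each). These steps follow the divisor used for each library, which is read depth only if FPKM were divided by read totals. How FPKM were scaled is not stated. In bulk libraries a change in the mix of cells and a change of RNA per cell cannot be told apart.

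Summed over the family, libraries held 90190, 85495 and 89685 FPKM in Tgfbr2KO_TGFB1, 81374, 78265 and 82662 FPKM in Tgfbr2KO_Vehicle, 94844, 88252 and 97007 FPKM in TGFB1, and 88726, 82644 and 88569 FPKM in Vehicle. Each TGFB1-treated group lay above its vehicle group on average, without overlap in Tgfbr2KO cultures and with overlap in the others. Replicate by replicate, the TGFB1 sum was above the Vehicle sum each time. As a share of all FPKM the family was 17.0% ± 0.567 in Tgfbr2KO_TGFB1, 16.0% ± 0.336 in Tgfbr2KO_Vehicle, 16.6% ± 0.542 in TGFB1 and 17.0% ± 0.614 in Vehicle (SD, n = 3 each). Between TGFB1 and Vehicle the order thus changed with the denominator, on average and replicate by replicate. In replicate order the share was 16.8%, 16.0% and 17.0% in TGFB1, against 17.1%, 16.4% and 17.6% in Vehicle. All FPKM of a library summed to 561717 ± 9276 in TGFB1, against 509060 ± 8462 in Vehicle. The ratio of 60S to 40S sums was 1.67 ± 0.0321 in Tgfbr2KO_TGFB1, 1.67 ± 0.0446 in Tgfbr2KO_Vehicle, 1.62 ± 0.0476 in TGFB1 and 1.62 ± 0.0263 in Vehicle, and the ranges of all groups overlapped.

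**Figure D1:**
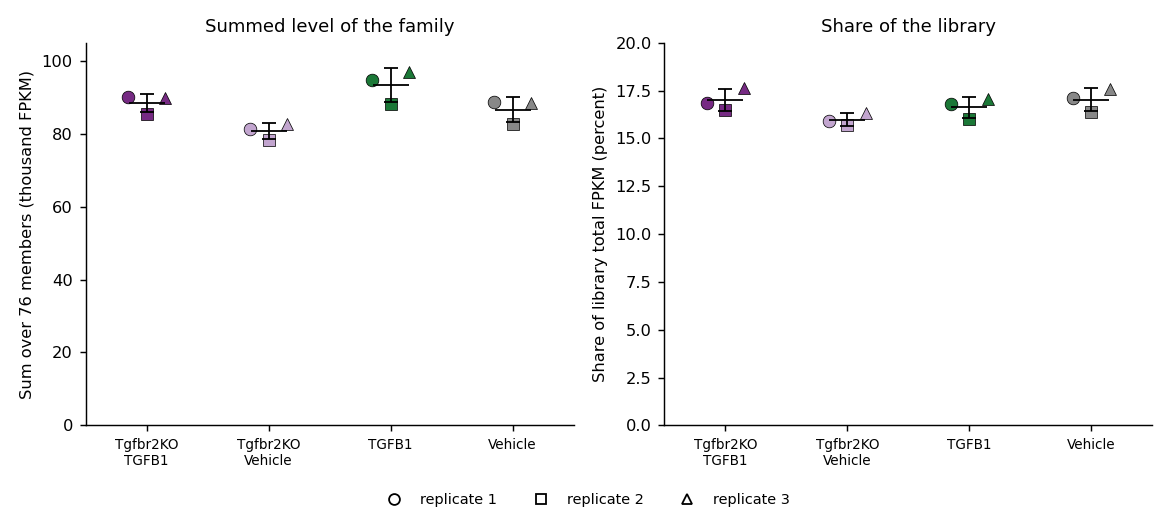
Left, summed FPKM of the 76 members per library, and right, the family's share of the library's total FPKM (percent), for the 4 groups. Points are libraries, shaped by replicate, and bars are the mean and SD of 3. The sum was 93368 FPKM on average in TGFB1, against 86646 FPKM in Vehicle, while the share was 16.6%, against 17.0%.

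With added TGFB1 in cultures without the knockout label, 10 members were higher than in Vehicle and none lower at an adjusted p under 0.05, led by Rps12, Rpl13a and Rpl35. That count stands beside 17.3% of all tested genes called higher and 14.6% called lower. It is not above the background in this fit, which leaves out the pairing of libraries described below. All 10 calls were lost under another scaling of the libraries: after upper-quartile scaling 0 members were called higher and 1 lower (beside 10.7% and 19.5% of all genes), and after equal-total scaling 0 higher and 3 lower (beside 9.23% and 22.1%). Differences were small and mostly of 1 sign: 73 of 76 were positive on the deposited scale, with a median of 0.09 against 0.02 for all tested genes, but 37 and 20 were positive after upper-quartile and equal-total scaling. Those scalings moved the median of all genes to −0.07 and −0.10, and the family's median to −0.01 and −0.05, so that the family stood 0.07, 0.06 and 0.05 above all genes under the deposited, upper-quartile and equal-total scales.

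Rps12, a protein of the 40S subunit, had 2444, 2211 and 2459 FPKM in TGFB1 libraries, against 1984, 1787 and 2032 FPKM in Vehicle libraries. Every TGFB1 library was above every Vehicle library. Its log2 difference was 0.29 ± 0.07 (SE, adjusted p = 0.00779), and it was called in all 12 fits that left out 1 library, at 0.24 to 0.34, but not after upper-quartile scaling (0.20, adjusted p = 0.0664) or equal-total scaling (0.15, adjusted p = 0.0736). Rpl13a, a 60S protein, had 1867, 1714 and 1960.0 FPKM in TGFB1, against 1620.2, 1495 and 1650.2 FPKM in Vehicle, again without overlap (0.22 ± 0.06, adjusted p = 0.0221). Rpl35, which lies near the exit of the 60S peptide tunnel, had 2439.9, 2217 and 2488 FPKM in TGFB1, against 2147, 2027 and 2009 FPKM in Vehicle (0.21 ± 0.06, adjusted p = 0.0251). Rplp0, the base of the stalk that carries Rplp1 and Rplp2, had 1615, 1535 and 1704 FPKM in TGFB1, against 1487, 1380.3 and 1428 FPKM in Vehicle (0.18 ± 0.05, adjusted p = 0.0301). The other called members were Rps24 (0.20), Rps3 (0.17), Rps16 (0.16), Rps27a, which is made as a fusion with ubiquitin (0.16), Rpl30 (0.15) and Rpl27 (0.14), which turned to −0.0036 after equal-total scaling. On the deposited scale, groups did not overlap for 23 members that were higher (30.3%, against 26.1% of all tested genes). They did not overlap for 1 that was lower (1.32%, against 21.8%).

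Libraries of the same label number deviated together within each treatment pair. With that number as a block, on the deposited scale, 31 of 76 members were called higher, a larger share than the 22.7% of all genes. Only 1 was called lower, beside 18.7% of all genes. In the same number TGFB1 was above Vehicle in all 3 pairs for 57 members (75%, against 35.5% of all genes). The pairs were counted on the deposited scale only, and the signs in this comparison moved with the scaling. The count without the block rested on single libraries. It was 18 without TGFB1 replicate 2, and 1, which was Rps12, without Vehicle replicate 2, TGFB1 replicate 1 or TGFB1 replicate 3. It was 4 to 6 without Vehicle replicate 1 or 3, Tgfbr2KO_Vehicle replicate 1 or 2, or Tgfbr2KO_TGFB1 replicate 2. The lower relative depth of the TGFB1 libraries moved with this comparison, and its part in the result was not tested.

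Measured against the median of the family in each library, 3 members departed from the others with TGFB1, beside 7.48% of all genes higher and 21.2% lower on that scale. Rps12 was higher by 0.16 (adjusted p = 0.0414), and Rpl3 and Rpl21 were lower, by −0.25 (adjusted p = 0.00643) and −0.17 (adjusted p = 0.0371). These 3 became 1 without Vehicle replicate 1 or 2, any TGFB1 library, Tgfbr2KO_Vehicle replicate 2 or Tgfbr2KO_TGFB1 replicate 2, and the call of Rps12 was lost in each of those fits. Rpl3, a 60S protein that reaches toward the peptidyl transferase centre, had 653, 653 and 682 FPKM in TGFB1, against 695, 704 and 756 FPKM in Vehicle. All TGFB1 libraries were below all Vehicle libraries, yet on the deposited scale the difference of −0.12 ± 0.07 did not pass (adjusted p = 0.227) until the label number was a block (adjusted p = 0.0355), and it was called after upper-quartile (−0.21, adjusted p = 0.0491) and equal-total scaling (−0.26, adjusted p = 0.0276). The 5S RNP proteins Rpl5 and Rpl11, which bind Mdm2 when assembly fails, had differences of 0.08 ± 0.09 and −0.01 ± 0.05, and Rpsa, a 40S protein also known as a laminin receptor, 0.05 ± 0.05, none of them called.

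**Figure D2:**
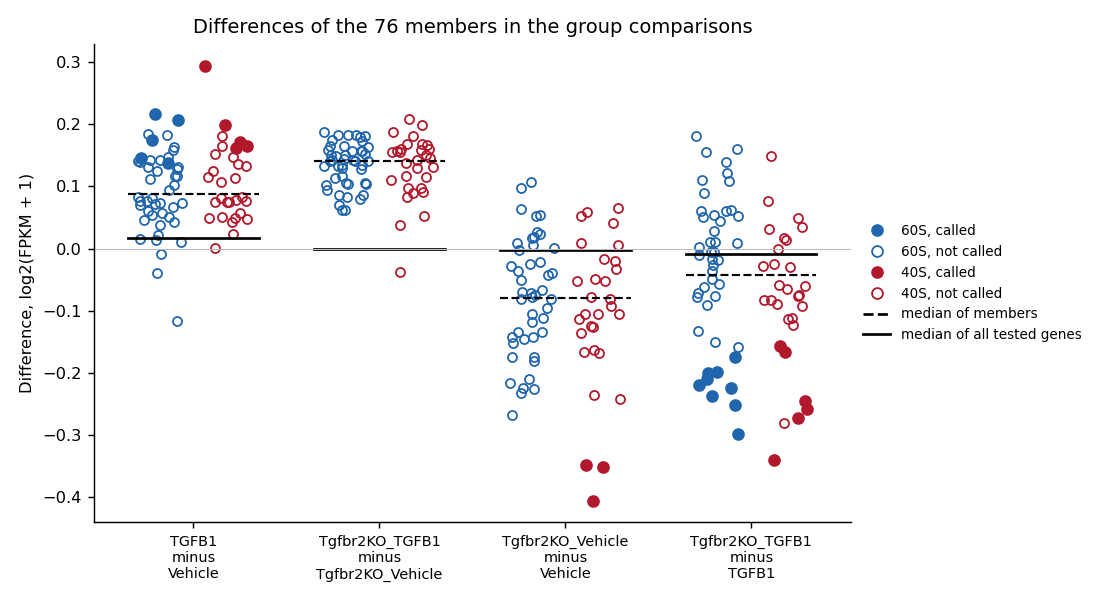
Difference of each of the 76 members on the log2(FPKM + 1) scale in the 4 group comparisons, with 60S members in blue and 40S members in red. Filled points passed an adjusted p of 0.05, dashed bars are the members' median and solid bars the median of all 12641 tested genes. The members' median was 0.09 for TGFB1 minus Vehicle (−0.01 and −0.05 after upper-quartile and equal-total scaling), 0.14 for Tgfbr2KO_TGFB1 minus Tgfbr2KO_Vehicle, −0.08 for Tgfbr2KO_Vehicle minus Vehicle and −0.04 for Tgfbr2KO_TGFB1 minus TGFB1 (0.06 and 0.07 after those scalings).

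In Tgfbr2KO cultures the mean of nearly every member lay above that of vehicle with added TGFB1. No member, and no other tested gene, was called by limma (0 of 76, beside 0.00% of all tested genes). At an unadjusted p under 0.05 there were 33 members, the lowest adjusted p was 0.738, and with the label number as a block there were 61 and 0.229. The difference was positive for 75 of 76 members, with a median of 0.14 against 0.00 for all genes, and for 75 and 74 after upper-quartile and equal-total scaling. Rps21 was the exception, with 1361, 1132 and 1284 FPKM in Tgfbr2KO_TGFB1, against 1348, 1353 and 1174 FPKM in Tgfbr2KO_Vehicle (−0.04 ± 0.11). Groups did not overlap for 47 members (61.8%, against 6.60% of all genes), and in all 3 label numbers Tgfbr2KO_TGFB1 was the higher for 67 (88.2%, against 21.9%). The largest member, Rplp1, had 5594, 4927 and 5362 FPKM in Tgfbr2KO_TGFB1, against 4961, 4653 and 4833 FPKM in Tgfbr2KO_Vehicle (0.14 ± 0.07). Members share libraries, so these counts describe 3 libraries against 3 and not 76 separate observations.

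Whether the change with TGFB1 differed between genotypes was tested as an interaction, and no member passed (0 of 76, beside 8.38% of all genes called higher and 9.26% called lower in Tgfbr2KO; 1 member had an unadjusted p under 0.05). Rpl3 came nearest, with an interaction of 0.25 ± 0.10 (adjusted p = 0.101): it had 686, 720.1 and 785 FPKM in Tgfbr2KO_TGFB1, against 628, 650.0 and 718 FPKM in Tgfbr2KO_Vehicle, a difference of 0.13 ± 0.07 that was not called. Relative to the family median in each library, the Rpl3 interaction was 0.27 and was called (adjusted p = 0.0427), beside 7.66% of all genes called higher on that scale. Rps12 had an interaction of −0.17 ± 0.09 (adjusted p = 0.258). With the label number as a block both passed, Rpl3 higher (adjusted p = 0.00881) and Rps12 lower (adjusted p = 0.0379), beside 13.6% and 15.4% of all genes. Across the 76 members the changes with TGFB1 in the 2 genotypes, which share no library, had Pearson's r of 0.07 and Spearman's rho of 0.11. On the deposited scale 72 had the same sign. Some same-numbered libraries also deviated together between genotypes, so these changes may not be independent.

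Without added TGFB1, the knockout label went with lower mRNA levels of 3 genes of the 40S subunit, Rps14 and Rps19 among them, and with no higher member. The background was 0.720% of tested genes called lower and 0.522% called higher. Rps14, whose human homologue is lost in the 5q deletion syndrome, had 1211, 1217 and 1258 FPKM in Tgfbr2KO_Vehicle, against 1636, 1518 and 1736 FPKM in Vehicle (−0.41 ± 0.08, adjusted p = 0.0433). Rps19, mutated in human Diamond-Blackfan anaemia, had 1436, 1394 and 1409.6 FPKM in Tgfbr2KO_Vehicle, against 1859, 1747 and 1807 FPKM in Vehicle (−0.35 ± 0.06, adjusted p = 0.0340). Neither gene overlapped between groups. The count of 3 became 0 when Vehicle replicate 1 or 3, TGFB1 replicate 1 or any Tgfbr2KO_Vehicle library was left out, 1 was called without TGFB1 replicate 3 or Tgfbr2KO_TGFB1 replicate 2, and 7 without Tgfbr2KO_TGFB1 replicate 3. The differences of Rps14 and Rps19 themselves stayed between −0.46 and −0.33 in all these fits, but Rps14 was called in 1 of the 12, without Tgfbr2KO_TGFB1 replicate 3, and Rps19 in 6.

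Most other members leaned the same way in that comparison. Of the 76, 18 were positive, the median was −0.08 against 0.00 for all genes, and upper-quartile and equal-total scaling left 20 and 19 positive. Groups did not overlap for 25 members that were lower (32.9%, against 15.6% of all genes). The stalk proteins Rplp1 (−0.13 ± 0.07), Rplp2 (−0.05 ± 0.08) and Rplp0 (0.00 ± 0.05) were not called, nor were Rpl5 (−0.12 ± 0.09) and Rpl11 (−0.11 ± 0.05). The lower summed level of fibroblast markers in Tgfbr2KO_Vehicle moved with these differences, but the markers did not all move alike. Of the 9, 2 were positive, Pdpn and Vim, and none was called. The part of the markers in these differences was not tested.

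With TGFB1 in both arms, 15 members were lower in Tgfbr2KO_TGFB1 than in TGFB1 and none higher, beside 18.3% of all genes called lower and 15.6% higher. The family's sign depended on the scale: the median was −0.04 as deposited but 0.06 and 0.07 after upper-quartile and equal-total scaling, under which 8 and 10 members were called higher, beside 21.0% and 21.6% of all genes, and 3 and 4 lower, beside 12.2% and 11.9%. Rps14 was again the most lowered, with 1411, 1276 and 1498 FPKM in Tgfbr2KO_TGFB1, against 1697, 1675 and 1924 FPKM in TGFB1 (−0.34 ± 0.08, adjusted p = 0.00724). Rpl35 had 2039, 1901 and 1869 FPKM in Tgfbr2KO_TGFB1, against 2439.9, 2217 and 2488 FPKM in TGFB1 (−0.30 ± 0.06, adjusted p = 0.00368). Rps19 had 1598, 1481 and 1646 FPKM in Tgfbr2KO_TGFB1, against 1926, 1778 and 2003 FPKM in TGFB1 (−0.27 ± 0.06, adjusted p = 0.00557). None of these 3 genes overlapped between groups, and each was called lower in all 12 fits without 1 library and under both scalings. Others called were Rps3 (−0.26), Rpl34 (−0.25), Rpl12 (−0.24), Rpl27 (−0.22), Rpl35a (−0.22), Rpl32 (−0.21), Rpl13a (−0.20), Rpl31 (−0.20), Rpl10 (−0.18), Rps16 (−0.17) and Rps27a (−0.16). The count was 7, 9 and 8 without TGFB1 replicate 3, TGFB1 replicate 1 and Tgfbr2KO_TGFB1 replicate 2.

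Measured against the family median in each library, 7 members were lower in Tgfbr2KO_TGFB1 (among them Rps14, Rpl35, Rps19, Rps3, Rpl12 and Rpl35a) and 15 higher, beside 10.5% and 19.0% of all genes, the largest Rpl27a at 0.27 (adjusted p = 0.00156), Rpl21 at 0.25 (adjusted p = 0.00643) and Rpl3 at 0.23 (adjusted p = 0.00972). The genotype differences of members were alike in the 2 media. Tgfbr2KO_Vehicle minus Vehicle and Tgfbr2KO_TGFB1 minus TGFB1 share no library. They are not independent, because same-numbered libraries deviated together within genotypes. Over the 76 members these 2 comparisons had Pearson's r of 0.79 and Spearman's rho of 0.76, with 59 of the same sign. All tested genes, which were not matched to the members in level, had r of 0.227. Of the members called, 3 were common to both, Rps14 and Rps19 among them, which is 3 of 3 with vehicle and 3 of 15 with TGFB1. All members were read in the same 12 libraries, so the r describes these libraries and has no test.

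**Figure D3:**
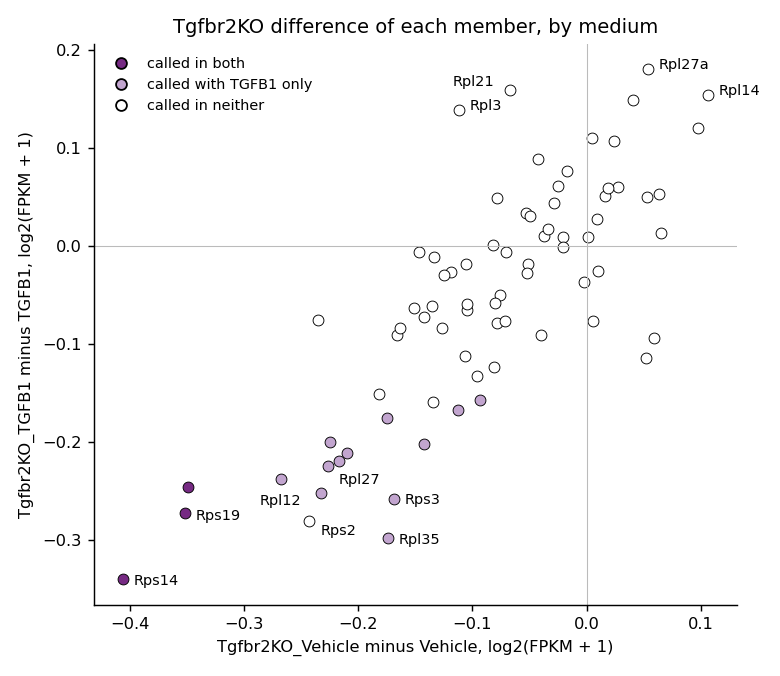
Difference of each member between Tgfbr2KO_Vehicle and Vehicle (horizontal) and between Tgfbr2KO_TGFB1 and TGFB1 (vertical), both on the log2(FPKM + 1) scale, 1 point a member, filled by the comparisons in which it was called lower. Rps14 and Rps19 stand at the lower left, at −0.41 and −0.35 with vehicle and −0.34 and −0.27 with TGFB1.

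**Figure D4:**
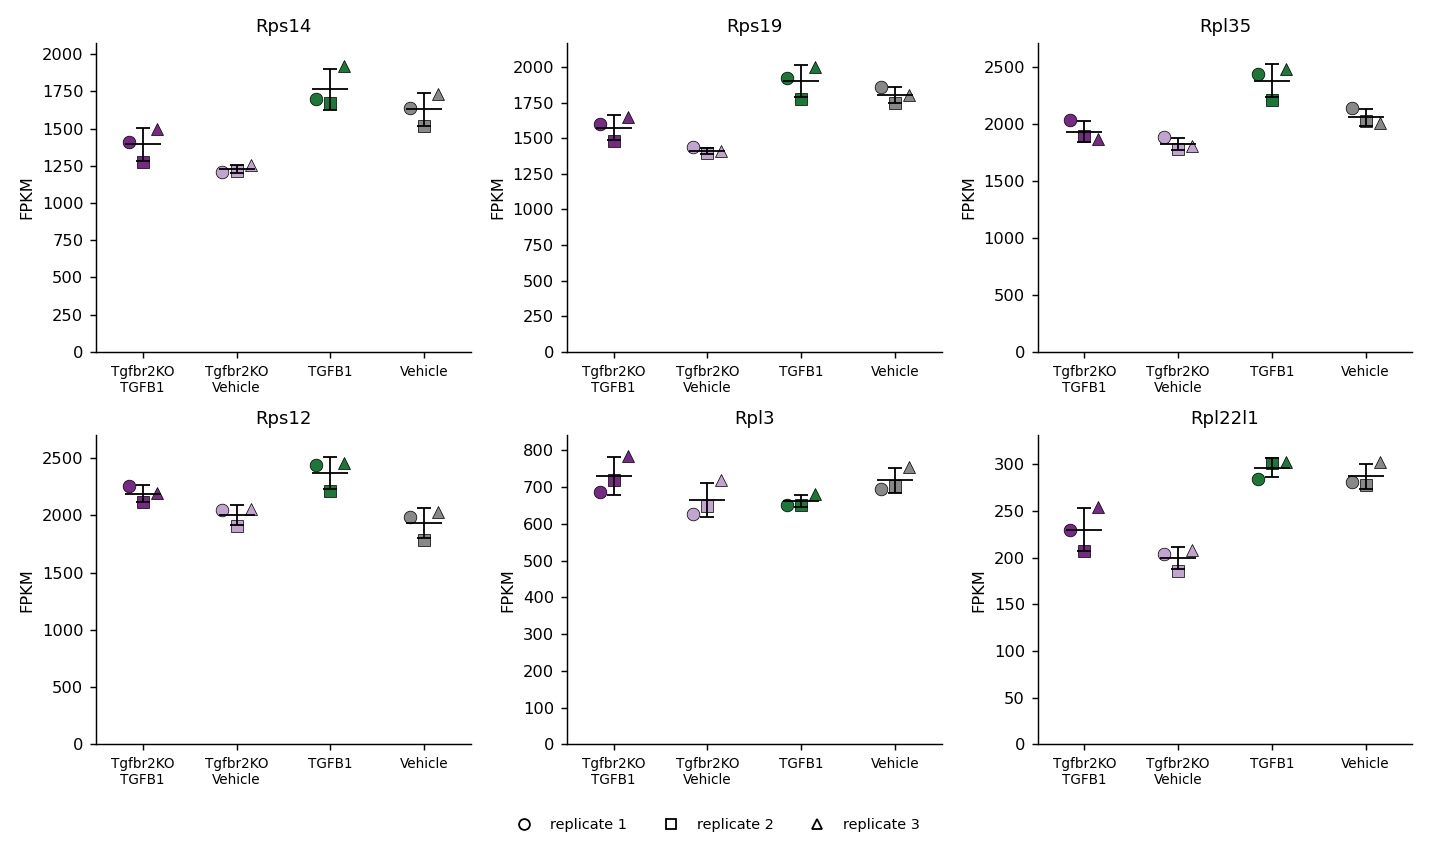
FPKM of 5 members and of the paralog Rpl22l1 in the 12 libraries, grouped, with points shaped by replicate and bars for the mean and SD of 3 libraries; axes start at 0. Rps14, Rps19 and Rpl22l1 were lower in Tgfbr2KO libraries than in libraries without the label, and Rps12 had its highest mean in TGFB1.

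Paralogs and fusion genes outside the symbol pattern gave a further readout. Rpl22l1, a paralog that can stand in for Rpl22 in the 60S subunit, had 204, 186 and 208 FPKM in Tgfbr2KO_Vehicle, against 281, 278 and 302 FPKM in Vehicle. All knockout libraries were below the others, and the difference was −0.53 ± 0.08 (adjusted p = 0.0271), though 5 of the 12 fits without 1 library lost the call. With TGFB1 it had 229.9, 207 and 254 FPKM in Tgfbr2KO_TGFB1, against 284, 301 and 302 FPKM in TGFB1 (−0.37 ± 0.08, adjusted p = 0.00447), and all 12 such fits kept that call. Rpl22 itself had 92.7, 96.1 and 106 FPKM in Tgfbr2KO_Vehicle, against 97.3, 95.03 and 101 FPKM in Vehicle, a difference of 0.00 ± 0.07. Rack1, a scaffold on the head of the 40S subunit, was higher with TGFB1 than with vehicle (0.27 ± 0.05, adjusted p = 0.00307). Fau, the fusion that yields a 40S protein, had a difference of 0.17 ± 0.08 that was not called. The testis and muscle paralogs Rpl10l, Rpl39l and Rpl3l stood below 0.6 FPKM in every library.

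The rest of the pathway was described by lists, whose counts with TGFB1 against vehicle stand beside 17.3% of all tested genes called higher and 14.6% called lower. Of 43 tested ribosome assembly factors, 5 were higher (11.6%) and 0 lower with TGFB1 than with vehicle; the largest were Nop10 of the H/ACA RNPs (0.60 ± 0.14), Bop1 of 60S assembly (0.38 ± 0.11), the 60S export adaptor Nmd3 (0.29 ± 0.07) and the GTPase Lsg1 (0.28 ± 0.09). In Tgfbr2KO_TGFB1 minus Tgfbr2KO_Vehicle, 0 of the 43 were positive, with a median of −0.16 and none called, beside 75 of 76 ribosomal protein genes. Tgfbr2KO_TGFB1 replicate 3 stood apart: the factors summed to 1322, 1289.5 and 943 FPKM in Tgfbr2KO_TGFB1, against 1363, 1263 and 1306 FPKM in Tgfbr2KO_Vehicle. Without that library 19 of the 43 were positive, with a median of −0.02. Of the ribosomal protein genes, 75 of 76 remained positive, with a median of 0.12. In Tgfbr2KO_Vehicle minus Vehicle, 39 of the 43 were positive, with a median of 0.22 and none called. Here Vehicle replicate 3 stood apart, with those Tgfbr2KO_Vehicle sums against 1207.5, 1283 and 965 FPKM in Vehicle, and without it 34 were positive, with a median of 0.10. Of 13 RNA polymerase I genes, the subunit Polr1d was higher (0.21 ± 0.07) and the factor Ubtf lower (−0.25 ± 0.07) with TGFB1 (7.69% each).

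Among 26 regulators of ribosomal RNA and TOP mRNAs, 7 were higher (26.9%) and 2 lower (7.69%) with TGFB1 than with vehicle. Eif4ebp1, the mTOR target that holds the cap-binding factor, had 267.6 ± 13.1 FPKM in TGFB1, against 190.9 ± 13.1 FPKM in Vehicle (SD, n = 3 each; 0.49 ± 0.07, adjusted p = 0.000659). The transcription factor Myc had 37.5 ± 2.23 FPKM in TGFB1, against 25.8 ± 3.60 FPKM in Vehicle (0.53 ± 0.14). Mycn was lower (−0.84 ± 0.25), at 0.552 ± 0.197 FPKM in TGFB1, against 1.79 ± 0.462 FPKM in Vehicle. These Mycn levels are near the filter of 1 FPKM. The cell cycle inhibitor Cdkn1a was higher (0.60 ± 0.13), and the mTOR inhibitor Deptor was lower (−1.55 ± 0.29), at 0.676 ± 0.0212 FPKM in TGFB1, against 4.04 ± 1.39 FPKM in Vehicle. Larp1 itself had a difference of 0.06 ± 0.11 and was not called. In the same comparison 16 of 21 cell cycle genes were lower (76.2%) and 0 higher.

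Of 35 initiation and elongation factors, 5 were higher (14.3%) and 0 lower with TGFB1, the largest Eif2b2 of the eIF2B exchange factor (0.65 ± 0.09), Eif2s2 of eIF2 (0.33 ± 0.07), Eif1a (0.29 ± 0.10) and Eif4h (0.20 ± 0.05). Of 18 other genes with TOP mRNAs, Vim (0.63 ± 0.10) and Eef1b2 (0.19 ± 0.05) were higher, and Hnrnpa1 (−0.32 ± 0.09) and Eif4b (−0.14 ± 0.04) lower (11.1% each way). Among these genes, Eef1a1 and Eef2, which carry tRNA to the ribosome and move it along, had 0.03 ± 0.07 and 0.13 ± 0.05. Tpt1 had 0.21 ± 0.09, and none of these differences was called. Of 78 mitochondrial ribosomal protein genes, 5 were higher (6.41%) and 2 lower (2.56%), led by Mrpl52 (0.48 ± 0.08), Mrpl36 (0.43 ± 0.09), Mrpl34 (0.31 ± 0.07) and Mrpl53 (0.31 ± 0.09). Several calls in these lists rested on single libraries: of 12 fits without 1 library, Polr1d was called in 2, Eif1a in 3, Lsg1 and Eif4b in 4, Bop1 in 7, Ubtf, Hnrnpa1 and Mrpl53 in 8, Mycn in 9, Myc in 10, and Eef1b2 and Eif4h in 11. The calls of Bop1, Nmd3, Lsg1, Polr1d, Eef1b2, Eif1a, Eif4h and Mrpl53 were lost under both scalings, and those of Mrpl34 and Rack1 after equal-total scaling.

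Beyond the groups, some members followed the number that the labels share over the 4 groups (31 for replicate 1, and another for replicate 2 and for replicate 3). An F test of the number beside the group, chosen after seeing the data, called 13 of 76 members, beside 9.59% of all tested genes. Rps18, a 40S protein named here after its values were seen, had 2039, 1070.0 and 1090.0 FPKM in Tgfbr2KO_TGFB1, 1857, 945 and 978 FPKM in Tgfbr2KO_Vehicle, 1984, 1006 and 1117 FPKM in TGFB1, and 1921, 946 and 1047 FPKM in Vehicle, in the order of replicates 1, 2 and 3. Its value was highest in the number 31 library of all 4 groups, and the number took 97.8% of its variance. Rps18-ps4, which RefSeq lists as a noncoding RNA, had 5.49, 3.83, 7.39 and 6.95 FPKM in the number 31 libraries of those groups, and 169 to 206 FPKM in the other 8. Rps2, which was named in the same way, was highest at number 31 and lowest in replicate 3 in all 4 groups, and the number took 68.1% of its variance. What the number stands for is not given.

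**Figure D5:**
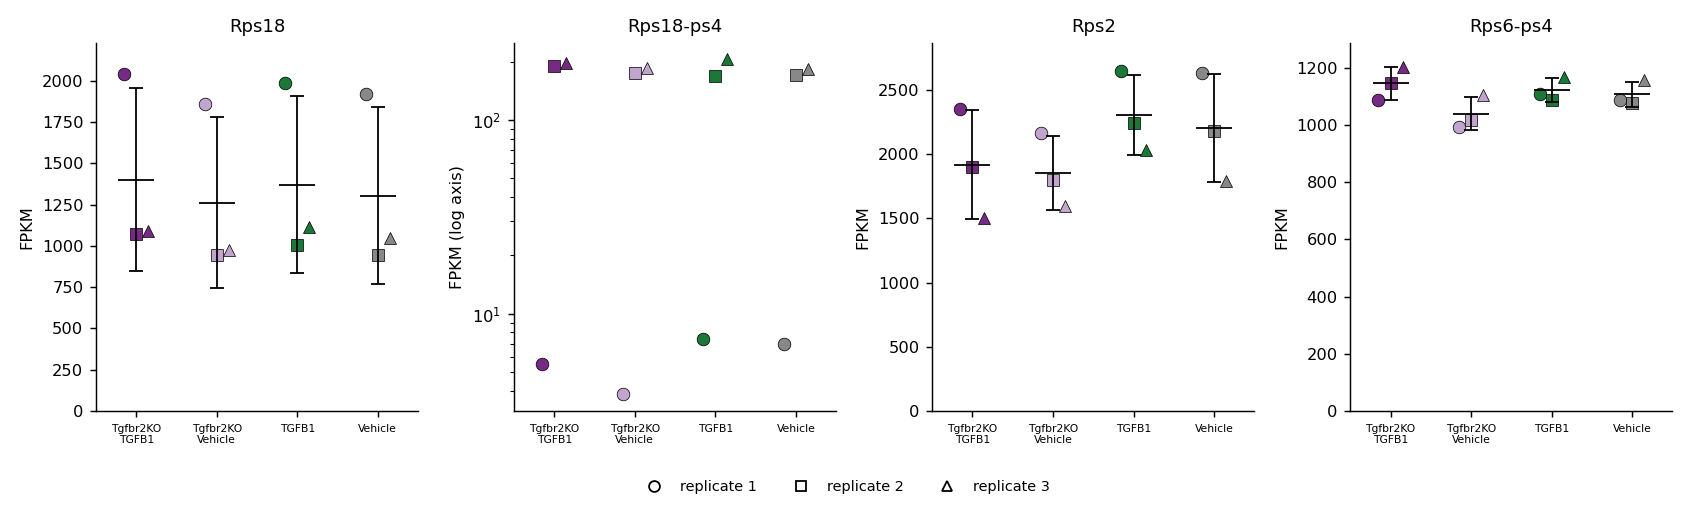
FPKM of Rps18, Rps18-ps4 (log axis), Rps2 and Rps6-ps4 in the 12 libraries, with points shaped by replicate; bars, where drawn, are the mean and SD of 3 libraries. The 4 number 31 libraries hold 1857 to 2039 FPKM of Rps18 and 3.83 to 7.39 FPKM of Rps18-ps4.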

How the data were processed

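Libraries were made from polyadenylated RNA, per the labels' protocols, and FPKM by gene symbol were deposited for all of them in 1 table. The tools were kallisto 0.46.1 and DESeq2 1.40.1 with build mm9, per the submitters' processing notes. How FPKM were scaled between libraries, and read depth, are not stated in the sources used here. Median-of-ratios factors of the deposited values equalled 1 in all 12 libraries, which is what values already scaled by that method give. FPKM were taken as log2(FPKM + 1), which understates changes of low genes. Group means of all 12 libraries were fitted with limma 3.58.1 in R 4.3.3 (empirical Bayes, variance trend, 8 residual degrees of freedom), with Benjamini-Hochberg adjustment over 12641 genes and a threshold of 0.05. Labels do not say that libraries of a group are separate animals or cultures, so p-values measure the spread between these libraries. The members and gene lists were chosen with earlier results of these data known. Genes named were the called members by size (up to 12 each way), the 5 highest and lowest members, fixed members and paralogs, and up to 4 called genes of a list, except where stated. Some genes that this rule names are not reported here. Markers of epithelium, endothelium, smooth muscle, glia and mesothelium were also listed: smooth muscle markers summed to 2889 to 3229 FPKM in TGFB1, against 1950 to 2433 FPKM in Vehicle. Their part in the results was not tested. Epithelial, endothelial, glial and mesothelial sums reached at most 63.8, 13.8, 0.964 and 5.54 FPKM in a library.

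Same-numbered libraries deviated together within genotypes, with correlations across genes of 0.391, 0.445 and 0.408 (TGFB1 and Vehicle) and 0.588, 0.227 and 0.529 (Tgfbr2KO_TGFB1 and Tgfbr2KO_Vehicle), so the number was taken to pair libraries there. The scripts were tested on simulated data. Sequences are from RefSeq on GRCm38.p6, and words shared between genes from GENCODE M21. Python 3.11.15, numpy 2.4.6, pandas 2.3.3 and matplotlib 3.10.9 were used.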

Additional observations from a re-analysis of the deposited data

Results flagged for a closer look

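For 11 genes of the pathway lists outside the family, the change with TGFB1 differed between genotypes by the interaction test of limma (the change in Tgfbr2KO minus that without the label, log2, adjusted over all tested genes). The interaction was −0.55 for Bop1 (adjusted p = 0.0358), −0.63 for Cdkn1a (0.0349), 1.62 for Deptor (0.0236), −0.69 for Eif2b2 (0.00529), −0.37 for Eif4ebp1 (0.0311), −0.39 for Mrpl34 (0.0245), −0.45 for Mrpl36 (0.0288), −0.49 for Mrpl52 (0.0203), −0.72 for Myc (0.0292), −0.34 for Nmd3 (0.0384) and −0.74 for Vim (0.00681). In Tgfbr2KO cultures the change of Myc with TGFB1 was −0.20 ± 0.14 and that of Eif4ebp1 0.12 ± 0.07, and neither was called. Of 12 fits without 1 library, Eif2b2 and Vim kept the call in 12, Mrpl52 in 11, Mrpl34 in 10, Deptor and Myc in 7, Eif4ebp1 in 6, Bop1 and Mrpl36 in 4, and Cdkn1a and Nmd3 in 3. Bop1, Eif4ebp1, Mrpl36 and Nmd3 lost it after upper-quartile and equal-total scaling, and Cdkn1a and Mrpl34 after upper-quartile scaling. No member of the family passed this test as reported, whereas 2 did with the label number as a block and 1 after equal-total scaling. The causes of these differences were not tested.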

How the results depend on the processing

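Counts of members called moved with the settings more than single differences did. For TGFB1 minus Vehicle, 10 as reported, the count was 1 after upper-quartile scaling and 3 after equal-total scaling, all of them lower where the 10 were higher, 1 with no filter on low values, 6 with no variance trend, 1 from a fit of only the 2 groups, 3 relative to the family median and 1 to 18 when 1 library was left out. For Tgfbr2KO_Vehicle minus Vehicle, 3 as reported, it was 0 with no filter, 6 with a filter at 5 FPKM, 0 from only the 2 groups and 0 to 7 when 1 library was left out. For Tgfbr2KO_TGFB1 minus TGFB1, 15 as reported, it was 4 with no filter, 5 from only the 2 groups and 7 to 15 when 1 library was left out. The interaction had 1 after equal-total scaling and 1 relative to the family median, where 0 were called as reported, and 0 when any library was left out; Tgfbr2KO_TGFB1 minus Tgfbr2KO_Vehicle had 0 in every such fit. The 3 members that departed from the family with TGFB1 became 1 with no filter, with no variance trend or from only the 2 groups, and 1 to 4 when 1 library was left out. Pseudocounts of 0.1 and 0.5 changed no call, and no sign of a called difference, among 295 differences of named genes. Median-of-ratios factors all equalled 1. The sign of 1 called difference turned: Rpl27 with TGFB1 was −0.0036 (adjusted p = 0.956) after equal-total scaling.

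With the label number as a replicate block, 32 members were called for TGFB1 minus Vehicle, 24 lower for Tgfbr2KO_Vehicle minus Vehicle (beside 8.00% of all genes), 26 for Tgfbr2KO_TGFB1 minus TGFB1 (4 higher and 22 lower, beside 20.1% and 23.1%), 2 for the interaction (1 higher and 1 lower, beside 13.6% and 15.4%) and 8 among members departing from the family. The block changed no other count of members called. In the lists it raised several counts called higher for TGFB1 minus Vehicle, beside 22.7% of all genes. Assembly factors went from 5 to 7 of 43, regulators from 7 to 9 of 26 and other TOP genes from 2 to 4 of 18. Initiation and elongation factors went from 5 to 8 of 35, and mitochondrial ribosomal protein genes from 5 to 9 of 78. For Tgfbr2KO_Vehicle minus Vehicle, 5 of 43 assembly factors were called higher, beside 7.01% of all genes. Between genotypes the replicate 1 and 3 libraries deviated together, with correlations of 0.336 and 0.412 with vehicle and 0.337 and 0.276 with TGFB1. The replicate 2 libraries did not (−0.0867 with vehicle and 0.00945 with TGFB1). Whether the number pairs libraries between genotypes is thus uncertain. Absolute depth is unknown, and the median standard error of a member's difference, 0.06, limits what 3 libraries a group can show.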
